A study of Mus musculus with 2 samples.

Results

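Prostaglandin genes are described here in single cells of mouse back skin, as 9 members chosen by symbol from the 31053 genes counted: the cyclooxygenases Ptgs1 and Ptgs2, the terminal synthases Ptges, Ptges3 and Hpgds, the receptors Ptger4 and Ptgir, the uptake carrier Slco2a1 and the breakdown enzyme Hpgd. Each symbol matched 1 gene. Prostaglandins are short-lived lipids made from arachidonic acid, which phospholipases free from membranes. A cyclooxygenase turns it into prostaglandin H2, and a terminal synthase then sets which prostaglandin is made. The product acts on receptors of the same or neighbouring cells, and it is cleared by carrier-mediated uptake followed by oxidation inside the cell. In skin the pathway is known for its part in inflammation, in wound repair and in the growth of hair.

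Back skin was taken at postnatal day 53 from 1 control mouse and 1 induced mouse, both carrying the K14-H2BGFP allele, which marks epithelial nuclei. The induced mouse carried a transgene in which doxycycline switches on miR-205, a microRNA of stratified epithelia, through an rtTA activator under the Krt14 promoter, so that expression was directed to epithelium and not to dermal or immune cells. Doxycycline chow began at day 49 and ran for 4 days. The mice were matched for sex and labelled C57BL/6, and the transgene was made in FVB founders. The control was a littermate; the methods give doxycycline to both mice while the sample label calls the control untreated, and its genotype at the transgene was not given. Epidermal, hair follicle and dermal cells were sorted and mixed at 3:5:2 before droplet capture, so the mixing as well as the skin sets the share of each cell type.

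The control library held 4545 cell barcodes with 55465594 unique molecular identifiers (UMIs, which count captured transcripts), and the induced library 4264 barcodes with 49733560 UMIs. After the study's filters 3936 and 3628 cells remained, with a median of 12198.5 and 11752.5 UMIs per cell. The libraries shared 11 barcode sequences, 5 of them among the cells kept. Clustering gave 22 populations, of which 19 had at least 20 cells in each library and were compared. Names ending in -like rest on marker genes, and populations whose markers did not settle a name keep a cluster number. The mature miRNA and the transgene were not measured, so these counts do not check the induction.

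With 1 library per condition there was no replicate, and no test between conditions could be made. Every interval below is a 95% interval for counting error only, which does not include differences between mice. Intervals of levels and ratios treat each UMI as independent, so they also leave out the spread between cells. They are too narrow where a few cells hold many UMIs of a gene. Levels are given as CPM, the UMIs of a gene scaled to the total UMIs of its population, and differences are the log2 ratio of induced over control. A gene was compared in a population where it had at least 20 UMIs over both libraries, and a ratio past 2-fold in either direction was counted.

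The sequences that connect these genes to the transgene are the microRNA itself and any matching sites in their messages. A miRNA pairs with messages mainly through its seed, bases 2 to 8, printed below in capitals within the mature sequence of miR-205-5p from RefSeq (GRCm38.p6, chromosome 1, 193507503 to 193507524, minus strand), followed by both places in the longest annotated 3′ UTR of Ptges where the full 7-base complement of the seed, also in capitals, was found:
mmu-miR-205-5p: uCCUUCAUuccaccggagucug
Ptges, UTR bases 45 to 51: gggacagagccATGAAGGctgaacttgcgg
Ptges, UTR bases 343 to 349: taggactaagaATGAAGGcttctcagacct

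Ptges was the single member of the 9 with such a match, and 10.4% of all 19915 genes with an annotated 3′ UTR had one. A shorter complement, of 6 bases of the seed, was found in 4 of the 9 members, beside 32.3% of all these genes. Those members were Ptgs2, Ptges, Slco2a1 and Hpgds. The Ptges UTR, 3106 bases long, was also the longest among the members, which ranged from 841 bases upwards. A match is a description of letters and does not show binding.

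Across the 19 populations 112 of 171 pairs of member and population had enough UMIs to compare. Induced was lower past 2-fold in 18 of these pairs and higher in 4. Over all genes and the same populations, 2.54% of pairs were lower past 2-fold and 3.51% were higher. The 18 lower pairs came from Ptgs2 with 7, Ptger4 with 4, Hpgd and Hpgds with 3 each and Ptges with 1. The 4 higher pairs came from Ptges and Hpgd with 2 each. Ptgs1, Ptges3, Slco2a1 and Ptgir stayed within 2-fold in every population where they were compared. In 10 of the 18 lower pairs the 5 cells with most UMIs held over 50% of the control UMIs of that gene, while none of the 4 higher pairs had over 50% of the induced UMIs in 5 cells. With cells under 5% mitochondrial UMIs the lower pairs numbered 8, and with at least 100 UMIs per pair they also numbered 8. Fewer pairs could be compared in these settings, so the counts do not give how many ratios changed. Under 5% mitochondrial UMIs no lower pair of the Inner bulge-like or Sebaceous gland-like cells could be compared.

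**Figure D1:**
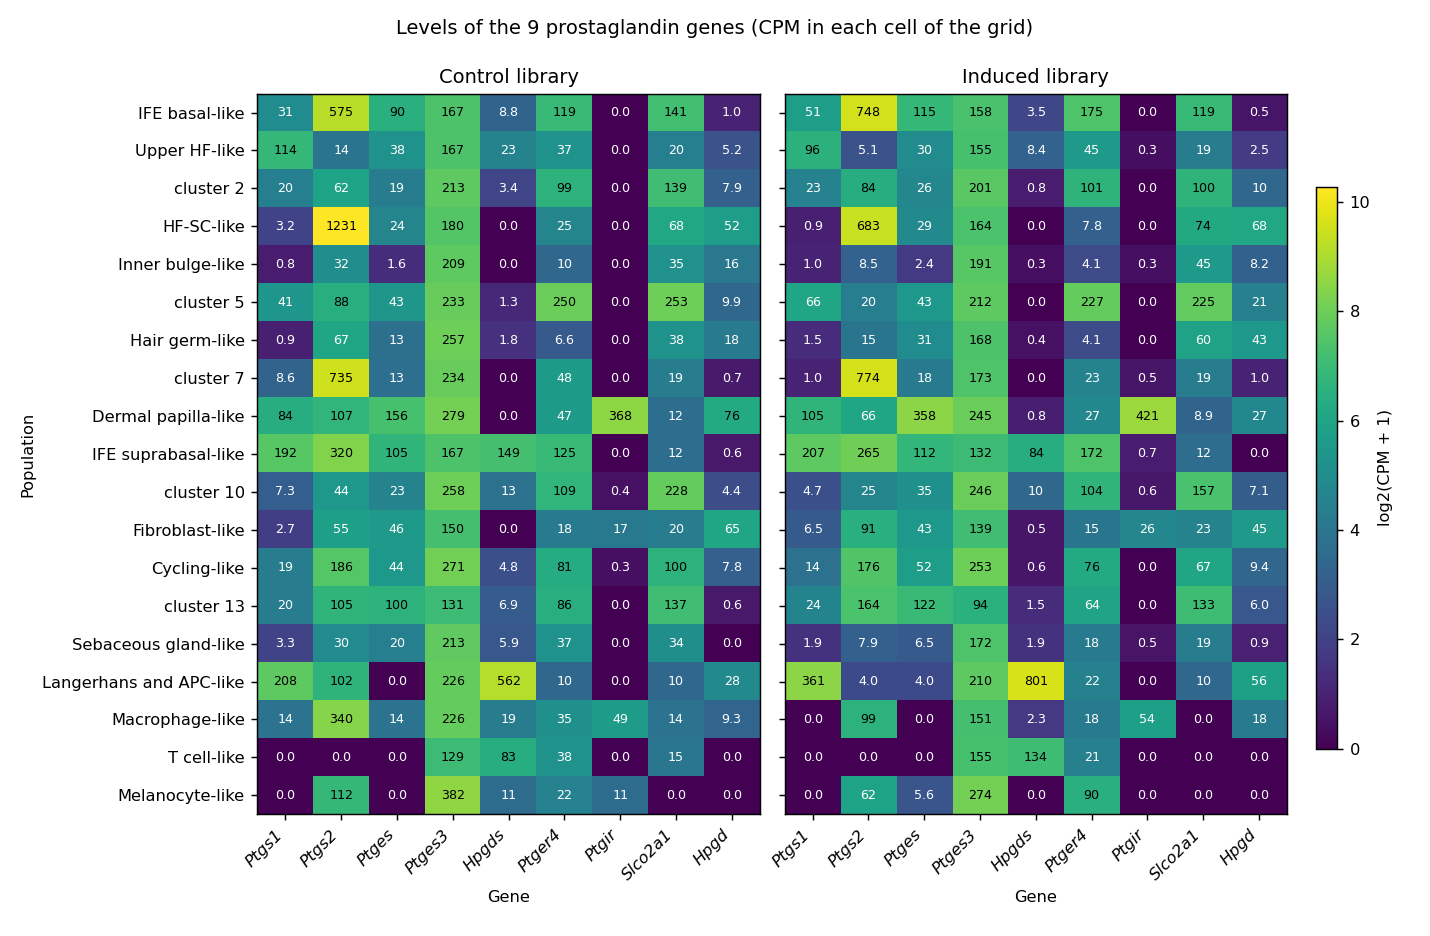
Levels of the 9 genes (columns) in the 19 compared populations (rows), in CPM, for the control library on the left and the induced library on the right, coloured by log2(CPM + 1). Ptgs2 reached 1231 CPM in control HF-SC-like cells, Hpgds peaked in Langerhans and APC-like cells, Ptgir in Dermal papilla-like cells, and Ptges3 was counted in every population.

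Ptgs2 (chromosome 1, 150100031 to 150108234 in GRCm38.p6), the inducible cyclooxygenase, was highest in 3 epithelial populations. In HF-SC-like cells, which carry hair follicle stem cell markers, its level was 1231 CPM in control and 683 CPM in induced, from 4278 and 2368 UMIs. In cluster 7, an unnamed population led by genes such as Col4a4, Pthlh and Serpinb11, it was 735 and 774 CPM. In IFE basal-like cells, the basal layer of the epidermis between follicles, it was 575 and 748 CPM. The order of these 3 was not the same in both libraries. All 3 stood above the IFE suprabasal-like cells, at 320 and 265 CPM, with intervals that did not meet in either library. These 3 populations together with the suprabasal layer held most Ptgs2 UMIs. IFE basal-like cells alone held 39.0% of them in control and 43.3% in induced, with 14.7% and 9.90% of the cells.

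In HF-SC-like cells induced was 1.80-fold lower, a log2 ratio of -0.85 with an interval from -0.92 to -0.78. The lower level went with fewer cells that held the transcript. Thinned to 5000 UMIs per cell, a Ptgs2 UMI was present in 52.7% of the control and 30.4% of the induced HF-SC-like cells, with intervals of 47.2 to 58.2 and 25.6 to 35.7, after 24 and 14 shallower cells were left out. Unthinned, the shares were 58.2% of 354 cells and 36.1% of 349 cells. The same thinned share in Upper HF-like cells, the lowest of any population with at least 50 cells per library, was 2.18% and 1.53%, so the HF-SC-like shares lay far above that background. Median depth was 9722 and 9915 UMIs in HF-SC-like cells and 13890 and 15220 in Upper HF-like cells. Among the cells with a UMI, the mean was 20.8 UMIs in control and 18.8 in induced. Cells with at least 10 Ptgs2 UMIs numbered 104 in control and 61 in induced, and cells with at least 50 numbered 26 and 9.

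The HF-SC-like difference was not held by a handful of cells. The 5 highest cells had 14.3% of the control UMIs and 23.7% of the induced UMIs, and 28 and 18 cells were needed to reach 50%. Without the 5 highest cells of each library the log2 ratio was -1.02, which is past 2-fold. Those 5 cells had a median of 12412 UMIs in control and 10907 in induced, against 9702 and 9911 in the other cells, and none of them was scored as a doublet. Genes of the dissociation stress list took a median of 3.13% of UMIs in the 5 highest control cells and 3.51% in the others. The summed stress list stood at 40403 CPM in control and 41700 CPM in induced HF-SC-like cells. This sum includes Hspb1, the most counted gene of the list, which was lower in induced, at 13920 and 11010 CPM. The median ratio of the 18 genes was 0.20, beside 0.09 for all genes, and 4 of the 18 were below 0. Of the 18, Socs3 alone was past 2-fold, at 127 and 328 CPM. The HF-SC marker list, with 7 of 7 genes present, summed to 12396 and 16105 CPM, and the 6 IFE basal markers to 5744 and 4459 CPM. Their part in the Ptgs2 difference was not tested.

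The direction for Ptgs2 was not shared by the other high populations. In IFE basal-like cells induced was higher, with a log2 ratio of 0.38 (interval 0.32 to 0.44), and in cluster 7 it was 0.07 (-0.04 to 0.19). Cells with at least 10 Ptgs2 UMIs made up 31.3% of control and 38.4% of induced IFE basal-like cells, and 16.0% and 16.9% of cluster 7. Cluster 13 also stood higher in induced, at 0.65 (0.35 to 0.95), from 166 and 219 UMIs. Whether these ratios differ between populations was not tested, since each rests on the same pair of mice.

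**Figure D2:**
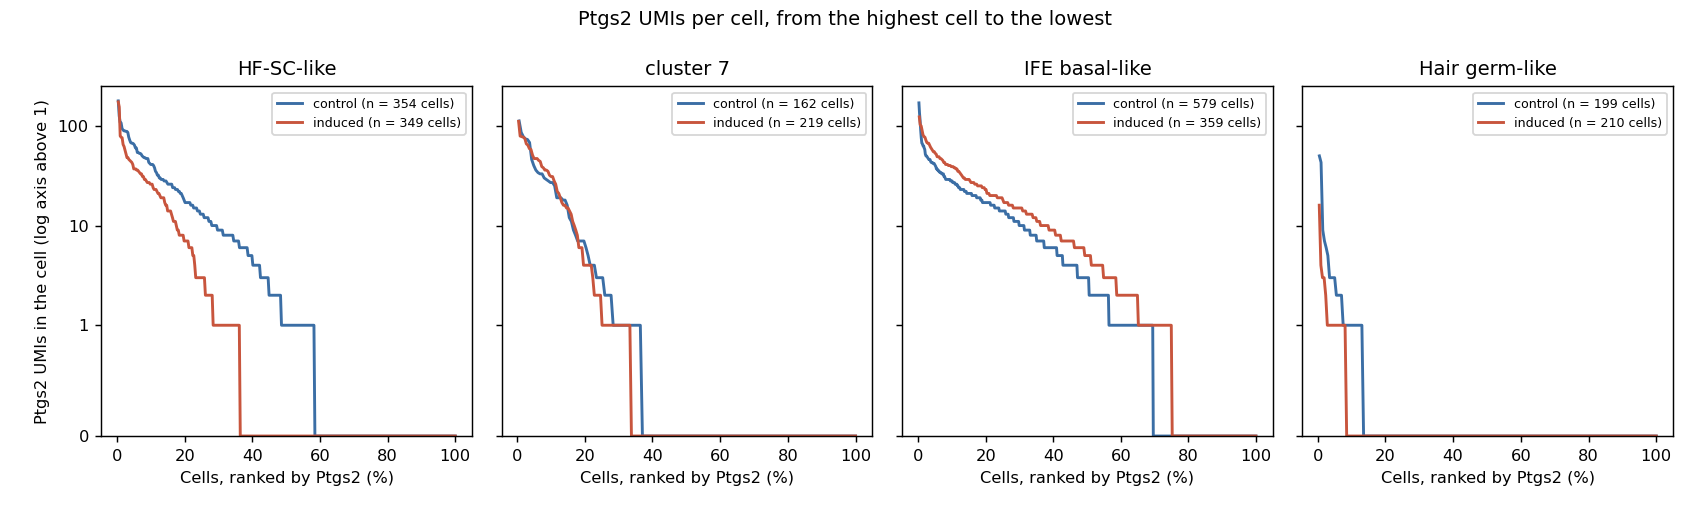
Ptgs2 UMIs in each cell (vertical, log axis above 1) of 4 populations, ranked from the highest to the lowest cell as a percent of the cells (horizontal), for control (blue) and induced (red). In HF-SC-like cells the induced curve lies below control and reaches 0 at 36.1% of cells against 58.2%. In IFE basal-like cells the induced curve mostly lies above, but the highest cell had 170 UMIs in control and 123 in induced. In cluster 7 the curves cross, and in Hair germ-like cells a few control cells rise far above the rest.

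The 7 pairs in which Ptgs2 was lower past 2-fold were all in populations with lower levels. The Hair germ-like population, which carries markers of the cells that start a new hair, had 152 UMIs in control and 40 in induced, or 66.7 and 14.8 CPM, a log2 ratio of -2.16 (-2.71 to -1.66). The 5 highest cells held 75.7% of the control UMIs, and the single highest cell held 32.9%. With cells under 5% mitochondrial UMIs the ratio was -0.33, so this difference depended on that filter. Cluster 5, led by genes such as Ntrk2, Fst and Itih5, had 417 and 55 UMIs, a log2 ratio of -2.12 (-2.57 to -1.72), with 34.3% of control UMIs in 5 cells, and it remained at -2.67 without them. The thinnest of the 7 was in Langerhans and APC-like cells, with 51 UMIs against 2 and 94.1% of the control UMIs in 5 of 52 cells. The other 4 were the Inner bulge-like (-1.91), Sebaceous gland-like (-1.88), Macrophage-like (-1.77) and Upper HF-like (-1.48) cells, each with over 70% of control UMIs in 5 cells. The Upper HF-like value turned to 0.17 when the upper limit on genes per cell was lifted.

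Ptgs1 (chromosome 2, 36216742 to 36258593), the cyclooxygenase usually expressed without a stimulus, had a different map. Its highest level was in Langerhans and APC-like cells, the antigen-presenting cells of the epidermis, at 208 CPM in control and 361 CPM in induced. IFE suprabasal-like cells followed at 192 and 207 CPM, and these did not separate from the Langerhans and APC-like cells in both libraries. Upper HF-like cells, at 114 and 96.4 CPM, and Dermal papilla-like cells, at 84.0 and 105 CPM, came next and did not separate from each other. In HF-SC-like cells, where control Ptgs2 was highest, Ptgs1 had 11 UMIs in control and 3 in induced, and in Upper HF-like cells, where Ptgs1 was high, Ptgs2 had 103 and 33 UMIs.

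Counted cell by cell, in HF-SC-like control cells 203 had Ptgs2 UMIs alone, 2 had Ptgs1 alone and 3 had both. In Upper HF-like control cells 225 had Ptgs1 alone, 13 had Ptgs2 alone and 20 had both. Both were often counted together in the epidermis, in 77 of 177 control and 67 of 148 induced IFE suprabasal-like cells and in 117 of 579 control and 109 of 359 induced IFE basal-like cells. Of the IFE basal-like cells with Ptgs1, 76.5% in control and 79.6% in induced also had Ptgs2. Among those without Ptgs1 the shares were 66.9% and 72.1%, and among all IFE basal-like cells 69.4% and 74.9%. In IFE suprabasal-like cells Ptgs2 was found in 55.4% and 52.8% of cells with Ptgs1 and in 57.9% and 38.1% of cells without. Whether the 2 genes occur together more often than their detection rates give was not tested. The induced ratio for Ptgs1 was 0.73 (0.50 to 0.96) in IFE basal-like cells, 0.68 (0.38 to 0.97) in cluster 5 and 0.79 (0.44 to 1.16) in Langerhans and APC-like cells. The ratio in Upper HF-like cells was -0.24 (-0.39 to -0.08), and none of the 10 populations compared was past 2-fold.

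**Figure D3:**
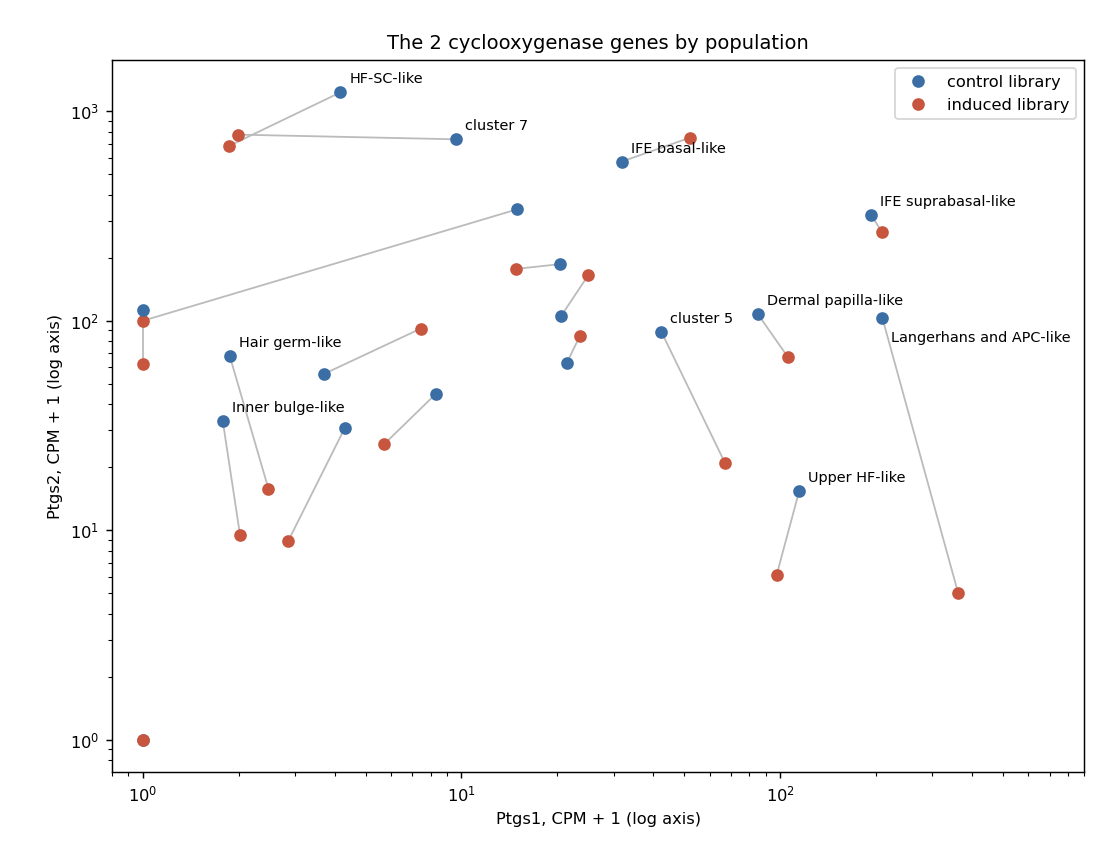
Ptgs1 (horizontal) against Ptgs2 (vertical), each as CPM + 1 on a log axis, with 1 blue point for control and 1 red point for induced per population, joined by a grey line. HF-SC-like cells and cluster 7 lie high for Ptgs2 and low for Ptgs1, Upper HF-like cells lie the other way, and IFE suprabasal-like cells are high for both.

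Ptges (chromosome 2, 30889471 to 30931020), the inducible synthase of prostaglandin E2, was highest in Dermal papilla-like cells, the mesenchymal cells at the base of the follicle. They had 102 UMIs in control and 444 in induced, or 156 and 358 CPM, a log2 ratio of 1.19 (0.89 to 1.52). Thinned shares were 32.7% of 49 control cells and 64.5% of 138 induced cells, with 91 and 83 shallower cells left out. The 5 highest cells held 37.3% of control and 18.2% of induced UMIs, and without them the ratio was 1.59. The lowest value over the alternatives was 0.96. These cells differed in other ways too. Their median depth was 4476.5 UMIs in control and 5501 in induced, and the 8 dermal papilla markers summed to 4592 CPM in control and 2538 CPM in induced with 1 of them at 0 in each. The 6 Inner bulge markers summed to 77.9 and 247 CPM with 2 of the 3 compared higher past 2-fold, the 8 IFE suprabasal markers to 130 and 304 CPM with 2 of the 5 compared higher and 1 lower, and the 6 IFE basal markers to 4704 and 6107 CPM. Of the 18 stress genes, Atf3 (-1.13) and Hspa1b (-1.28) were lower past 2-fold and none was higher. The part of these lists in the Ptges difference was not tested. The Krt14 promoter directs the transgene to epithelium, and neither the transgene nor miR-205 was measured in these cells, so their part was not tested either.

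Of the 7 members compared in Dermal papilla-like cells, Ptges was higher and Hpgd lower past 2-fold, beside 3.59% and 3.79% of all genes there. In the epidermis Ptges stood at 105 and 112 CPM in IFE suprabasal-like cells and at 89.9 and 115 CPM in IFE basal-like cells, where the ratio was 0.36 (0.21 to 0.50). Hair germ-like cells had 29 and 84 Ptges UMIs, a ratio of 1.27 (0.66 to 1.95). Sebaceous gland-like cells went the other way, with 31 and 14 UMIs and a ratio of -1.62 (-2.67 to -0.70), and 74.2% of those control UMIs were in 5 cells. Over the 14 populations compared, 11 ratios were above 0 and the median was 0.27. The median over all genes and populations was 0.02.

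Ptges3 (chromosome 10, 128058982 to 128077254), which encodes the p23 co-chaperone and is also described as a prostaglandin E synthase, had the flattest profile. It was counted in all 19 populations, from 94.4 to 382 CPM. Its ratio was below 0 in 18 of 19 populations, with a median of -0.13, and none was past 2-fold. The counting interval lay wholly below 0 in 6 of the 19, and every ratio compares the same pair of mice. The lowest ratio was in Hair germ-like cells, at -0.61 (-0.79 to -0.43), from 257 CPM in control and 168 CPM in induced. Ptges3 has a processed pseudogene and a relative, Ptges3l. Only reads that map to a single gene were counted, so near copies may make its level too low.

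Hpgds (chromosome 6, 65117293 to 65144981), the haematopoietic synthase of prostaglandin D2, belonged to a few populations. Langerhans and APC-like cells had 562 CPM in control and 801 CPM in induced, and 94.2% of 52 and 95.7% of 46 cells held a UMI. IFE suprabasal-like cells followed at 149 and 84.4 CPM, which did not separate in both libraries from T cell-like cells at 83.5 and 134 CPM. HF-SC-like cells had no Hpgds UMI in 330 control and 335 induced cells thinned to 5000 UMIs, which allows a share of up to 0.909% and 0.896%. The gene was therefore not present at the same low level everywhere.

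The epithelial and the Langerhans and APC-like values of Hpgds lay on opposite sides of 0. Induced was higher in Langerhans and APC-like cells, with a ratio of 0.51 (0.29 to 0.74). It was lower in IFE suprabasal-like cells, from 485 to 242 UMIs and a ratio of -0.82 (-1.05 to -0.60). It was lower past 2-fold in Upper HF-like cells, from 163 to 54 UMIs and a ratio of -1.44 (-1.92 to -0.99). IFE basal-like cells had 85 and 22 UMIs, a ratio of -1.29 (-2.06 to -0.62). Without the 5 highest cells of each library these 3 ratios were -1.06, -1.92 and -2.10, so they did not rest on 5 cells. Cluster 2 had 17 UMIs against 3, with a ratio of -2.01 and an interval from -4.60 to -0.40. Whether the direction differs between epithelium and Langerhans and APC-like cells was not tested.

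Ptger4 (chromosome 15, 5233399 to 5244187), which encodes the EP4 receptor for prostaglandin E2, was highest in cluster 5, at 250 CPM in control and 227 CPM in induced. These levels stood apart from the next population, IFE suprabasal-like cells at 125 and 172 CPM, in both libraries. IFE basal-like cells were at 119 and 175 CPM, and their ratio of 0.55 (0.43 to 0.67) was close to that of the suprabasal cells, 0.46 (0.27 to 0.66). In HF-SC-like cells Ptger4 was low and lower still in induced, at 24.8 and 7.79 CPM from 86 and 27 UMIs, a ratio of -1.65 (-2.35 to -1.03). A UMI was found in 8.18% of 330 thinned control cells and 2.99% of 335 thinned induced cells. The lowest thinned shares of Ptger4 in any larger population were 3.14% in control Hair germ-like cells and 1.45% in induced Inner bulge-like cells, so the induced HF-SC-like share was near background. The ratio stayed past 2-fold under all 11 other ways of processing tried, from -2.28 to -1.24.

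Ptger4 was the 1 member of the 6 compared in HF-SC-like cells that was lower past 2-fold, where 2.27% of all genes were. None of the 6 was higher past 2-fold, where 3.63% of all genes were. Ptger4 was also lower past 2-fold in cluster 7 (-1.05), Sebaceous gland-like cells (-1.02) and Inner bulge-like cells (-1.32). The cluster 7 value was past 2-fold in 9 of 11 other settings and the Sebaceous gland-like value in 8 of 10. The Sebaceous gland-like value became -0.36 without the upper limit on genes per cell. The Inner bulge-like value rests on 13 and 12 UMIs and became 0.11 without the upper limit on genes per cell.

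Ptgir (chromosome 7, 16906490 to 16910905), the prostacyclin receptor, was counted mostly in Dermal papilla-like cells. They held 82.3% of its UMIs in control and 86.4% in induced. The level was 368 and 421 CPM, from 241 and 523 UMIs, with a ratio of 0.19 (-0.03 to 0.42). Macrophage-like cells came second at 48.95 and 54.1 CPM, with intervals apart from the Dermal papilla-like cells and from the Fibroblast-like cells at 16.9 and 25.8 CPM in both libraries. IFE basal-like cells had no Ptgir UMI in 571 and 354 cells thinned to 5000 UMIs. Over all kept cells Ptgir was higher in induced, at 5.79 and 13.3 CPM and a ratio of 1.204 (1.00 to 1.41). Dermal papilla-like cells were 3.56% of control and 6.09% of induced cells, a share that the sorted mixture can set.

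Slco2a1 (chromosome 9, 103007061 to 103096002), the prostaglandin uptake carrier, was highest in cluster 5, at 253 CPM in control and 225 CPM in induced. Cluster 10, led by genes such as Gjb2, Ccl2 and Ccl7, followed at 228 and 157 CPM and did not separate from cluster 5 in both libraries. IFE basal-like cells, cluster 2 and cluster 13 lay between 100 and 141 CPM. Slco2a1 was lower in induced over all kept cells, at 100 and 70.2 CPM, a ratio of -0.52 (-0.58 to -0.45). Cluster 5 and cluster 10, where its level was highest, were 9.22% and 5.16% of control cells and 5.10% and 3.06% of induced cells. The sorted mixture can set these shares, and their part in the pooled ratio was not tested. Over the 14 populations compared the median ratio was -0.06. Within populations the ratios ran from -0.81 in Sebaceous gland-like cells to 0.64 in Hair germ-like cells, with -0.53 in cluster 10, -0.47 in cluster 2, -0.25 in IFE basal-like cells and -0.17 in cluster 5. The Hair germ-like value was -0.04 with cells under 5% mitochondrial UMIs. It was 0.15 without cells that had at least 3 UMIs of the smooth muscle and the Merkel and Krt8 marker lists. None of the 14 populations was past 2-fold.

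Hpgd (chromosome 8, 56294552 to 56321046), 15-hydroxyprostaglandin dehydrogenase, which inactivates prostaglandins, was sparse, with 578 UMIs in control and 688 in induced over all kept cells. HF-SC-like cells held 31.1% and 34.4% of them, at 51.8 and 68.3 CPM and a ratio of 0.40 (0.11 to 0.69). The thinned share of HF-SC-like cells with a UMI was 18.5% and 18.2%, and it was 0 of 151 and 0 of 204 cells in cluster 7, which allows a share of up to 1.99% and 1.47%. Fibroblast-like cells were at 65.1 and 44.7 CPM and Dermal papilla-like cells at 76.4 and 26.6 CPM. The top of this order was not settled, since neighbours did not separate in both libraries.

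Hpgd moved both ways. In Hair germ-like cells it was 40 and 116 UMIs, or 17.5 and 42.9 CPM, a ratio of 1.28 (0.76 to 1.85), and in cluster 5 it was 47 and 59 UMIs, a ratio of 1.11 (0.54 to 1.70). In Dermal papilla-like cells the ratio was -1.51 (-2.20 to -0.86), with 78.0% of the 50 control UMIs in 5 cells and a ratio of -0.82 without them. Inner bulge-like cells had 21 and 24 UMIs (-1.02) and Upper HF-like cells 37 and 16 (-1.04). The Upper HF-like ratio was past 2-fold in 5 of 11 other settings and was -0.29 with a finer clustering. With cells under 5% mitochondrial UMIs the Hair germ-like ratio was 0.09.

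**Figure D4:**
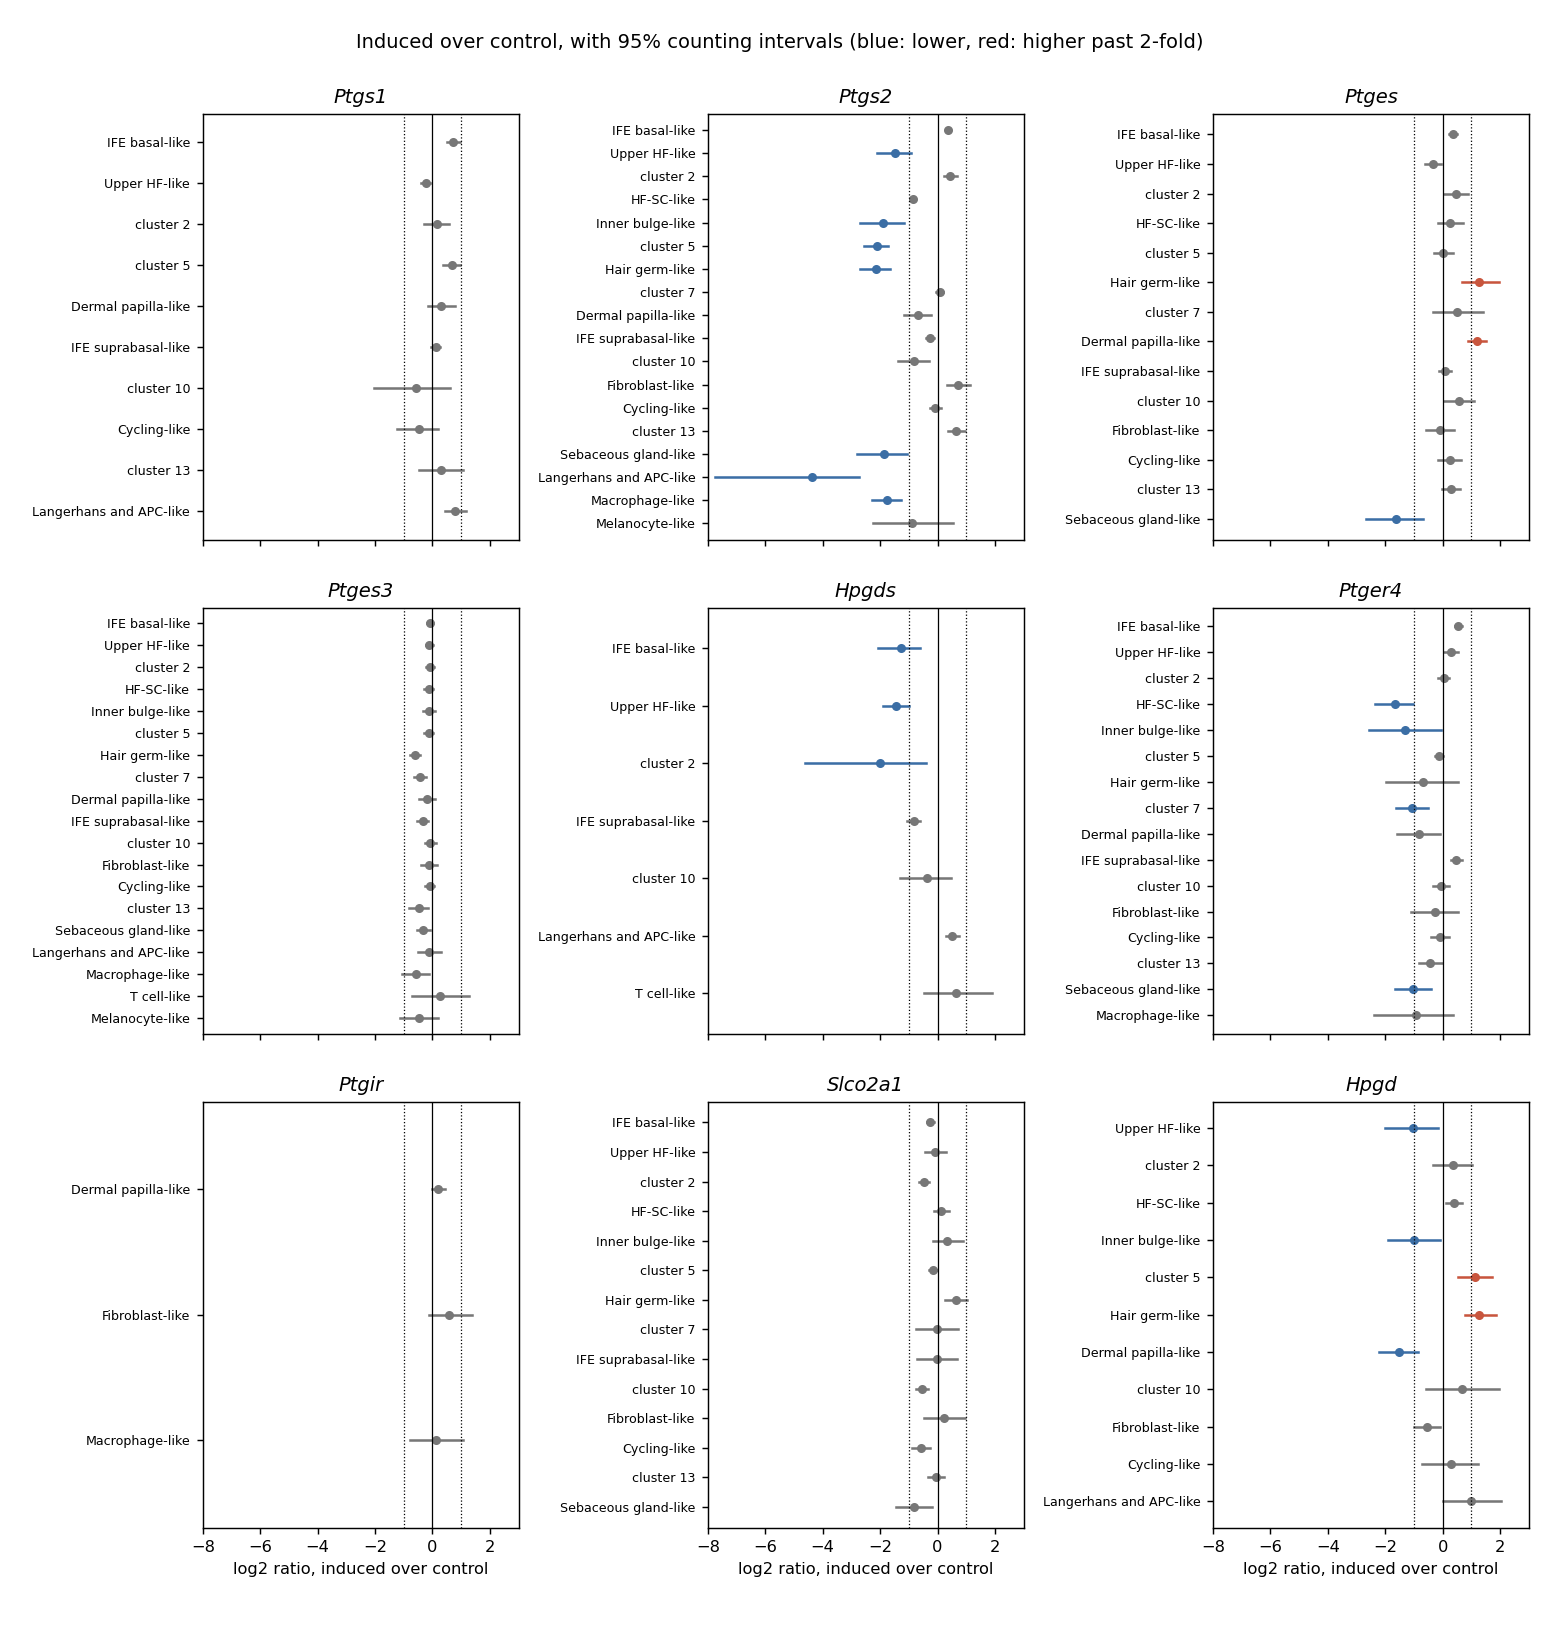
Log2 ratio of induced over control (horizontal) for each gene (panels) in each population compared (rows), with points for the ratio, bars for the 95% counting interval of 1 library against 1, and dotted lines at 2-fold. Blue marks the 18 pairs lower past 2-fold and red the 4 higher, and Ptgs1, Ptges3, Slco2a1 and Ptgir have none of either.

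The Hair germ-like cells thus had 1 of 6 members lower past 2-fold, beside 2.23% of all genes, and 2 of 6 higher, beside 6.06%. In this population other lists moved as well. The 6 smooth muscle markers summed to 57.9 CPM in control and 342 CPM in induced, with 4 of the 4 compared higher past 2-fold and 1 and 2 of the 6 at 0. The 4 Merkel and Krt8 markers summed to 7.02 and 297 CPM with 2 at 0 in each. Of that list, Krt8 and Krt18 were the genes raised 2-fold in this population over the other cells. The 6 cycling markers summed to 11.4 and 33.7 CPM, with 2 of the 2 compared higher past 2-fold, and the 8 dermal papilla markers to 32.5 and 15.9 CPM with 4 at 0 in each. The cycling and dermal papilla lists were not part of the comparison that follows. In a comparison added after the data were seen, some cells with smooth muscle or Merkel and Krt8 markers were left out. These were the 13 control and 31 induced cells with at least 3 UMIs of the 2 lists. The ratios were then -1.81 for Ptgs2, 1.08 for Ptges and 1.52 for Hpgd. Of the stress list Fos, Egr1, Atf3 and Socs3 were past 2-fold there, with ratios of 1.21, 1.11, 1.15 and 1.25, and the part of the stress, cycling and dermal papilla lists in these ratios was not tested.

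**Figure D5:**
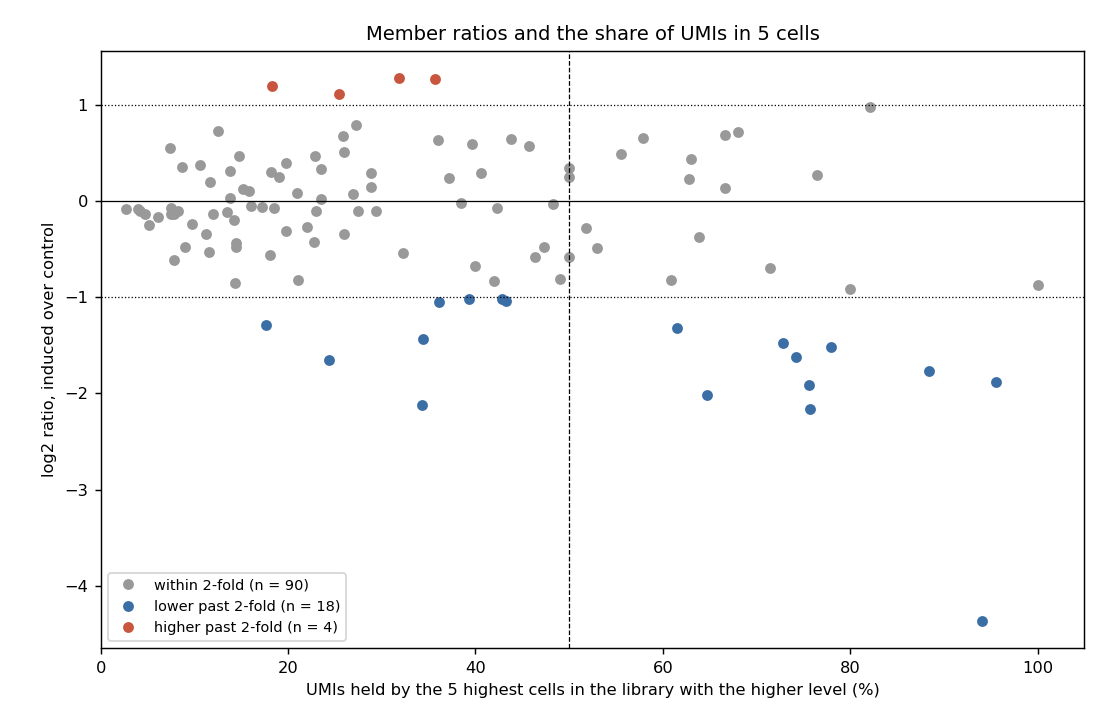
Log2 ratio of induced over control (vertical) against the percent of UMIs held by the 5 highest cells in the library with the higher level (horizontal) for the 112 pairs of gene and population. Of the 18 lower pairs (blue) 10 lie right of the dashed line at 50%, and the 4 higher pairs (red) lie left of it.

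Other genes of prostaglandin and related lipid metabolism, from a list of 52 of which 48 were in the gene table, gave a background for the members. Over all kept cells 40 of them were compared, 2 were lower and 4 higher past 2-fold, beside 1.09% and 6.39% of all genes, and their median ratio was 0.25 beside 0.10 for all genes. In HF-SC-like cells 1 of 19 was lower and 1 higher past 2-fold, beside 2.27% and 3.63% of all genes. The median there was 0.00 beside 0.09. Gstm2, a glutathione transferase, was the lower one, at 73.4 and 21.9 CPM and a ratio of -1.74 (-2.13 to -1.37).

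Gstm2 was also lower past 2-fold in Hair germ-like (-1.34), Upper HF-like (-1.30) and IFE basal-like (-1.25) cells. Anxa1, whose protein restrains phospholipase activity, was the most counted gene of the list in HF-SC-like cells, at 1150 and 649 CPM and a ratio of -0.82 (-0.90 to -0.75). Pla2g4a, the cytosolic phospholipase that frees arachidonic acid, was at 74.5 and 56.2 CPM there, a ratio of -0.41 (-0.68 to -0.13). In IFE basal-like cells the secreted phospholipase gene Pla2g2f was at 5.997 and 54.8 CPM, a ratio of 3.18 (2.79 to 3.62). In Upper HF-like cells, where Pla2g2f had most of its UMIs, it was at 171 and 310 CPM, a ratio of 0.86. Alox12b, a lipoxygenase of the skin barrier, was lower past 2-fold in Upper HF-like cells, at 25.0 and 9.80 CPM.

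In Dermal papilla-like cells none of the 11 genes of that list was past 2-fold, beside 3.79% of all genes lower and 3.59% higher. The prostaglandin F receptor Ptgfr was at 24.4 and 49.2 CPM, a ratio of 0.98 (0.20 to 1.90). In Langerhans and APC-like cells the list was led by the leukotriene genes Alox5ap, at 668 and 529 CPM, and Ltc4s, at 480 and 561 CPM, both within 2-fold.

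The genes whose control profile over the 19 populations was most like a member's are given as a description, with Pearson's r of log2(CPM + 1). The points share their library and their depth, and the genes were picked out of all genes with at least 200 UMIs, so high values arise from the choice. Ptgir was most like Cdo1 (r = 0.94), Zeb2 (0.91) and Dtnbp1 (0.90), and in the induced library these were 0.70, 0.77 and 0.81. Ptges was most like Chst15 (0.90), 8030462N17Rik (0.89) and Snupn (0.89), with 0.91, 0.72 and 0.50 in induced. Ptges3 was most like Ing5 (0.87), Klf7 (0.86) and Chtop (0.84), with 0.85, 0.75 and 0.16 in induced.

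Ptger4 was most like Il22ra2 (0.83), Gm26902 (0.80) and Ch25h (0.79), with 0.75, 0.68 and 0.76 in induced. Ptgs1 was most like Il1a (0.84), Bet1l (0.81) and Zfp597 (0.80), with 0.75, 0.31 and 0.68 in induced. Slco2a1 was most like Dsg2 (0.85), Tbl3 (0.85) and Med11 (0.83), with 0.74, 0.28 and 0.49 in induced.

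Hpgd was most like Glis2 (0.87), Mxra8 (0.82) and Nfkb1 (0.81), with 0.42, 0.49 and 0.65 in induced, and Hpgds like Nub1 (0.83), Rtf2 (0.83) and Zmiz2 (0.78), with 0.40, 0.48 and 0.66. For Ptgs2 the values were among the lowest, with Sipa1l3 (0.80), Ubp1 (0.77) and Ppp2r3a (0.76), and they dropped to 0.56, 0.23 and 0.21 in the induced library. Pairs of members were not picked for likeness, so their values cannot be set against these. Among them the highest control value was between Ptges and Ptger4 (0.58) and the lowest between Slco2a1 and Ptgir (-0.45). In the induced library the highest was between Ptges and Slco2a1 (0.62) and the lowest between Ptgs2 and Hpgds (-0.46).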

How the data were processed

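Droplet 3′ single-cell libraries of 1 control and 1 induced mouse were deposited as UMI counts per gene and cell; the authors made these counts with Cell Ranger (3.0.1 per the file headers, build mm10 per the submitters' processing notes), and nothing was normalised. Cell Ranger counts reads that map to a single gene, which can lower genes with near-identical copies. Cells with over 200 and under 5000 genes and under 10% mitochondrial UMIs were kept, as the study states. Libraries were integrated in Seurat (5.3.0, R 4.3.3; 2000 variable genes, 30 dimensions, resolution 0.8) without the members and the pathway and stress lists among the variable genes. A population was named where at least 3 of its markers were raised 2-fold, 1 or more stood among its 10 leading genes (detected in 30% of its cells), and no other class had more there; with 1 such marker, no other class could have a larger share raised. This naming rule was set after the clusters were seen. Doublet scores came from Scrublet in scanpy (1.11.5); its automatic threshold marked 4 cells in each library, so doublets were kept, and leaving out the 165 control and 145 induced cells with the highest scores was an alternative.

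UMIs were summed per population and library. Ratios used a pseudocount of 0.5 UMIs, with exact conditional binomial (Clopper-Pearson) intervals; levels had exact Poisson intervals and shares exact Clopper-Pearson intervals, all at 95% and for counting error only. A count of 0 allows 3 counts. Cells were thinned to 5000 UMIs for shares, and the background share was the lowest among populations with at least 50 cells per library. Simulated counts for HF-SC-like cells (9529 genes) returned 99.5% of 4-fold changes as past 2-fold, put 1.16% of unchanged genes past 2-fold, and 96.2% of intervals held the true ratio. These counts were Poisson draws from summed UMIs, with no spread between cells. The simulation therefore checks the calculation only, and not the intervals of genes held by few cells or of smaller populations. Named genes were the members, the pathway genes with at least 200 UMIs and past 2-fold or among the 3 with most UMIs in the population described, stress genes past 2-fold, and the 3 genes most like each member. The members and lists were chosen with earlier results of these data known. Gene positions and the miRNA came from RefSeq (GRCm38.p6), and UTRs from annotated transcripts on NCBIM37, matched by symbol and with no coordinates taken. The alternatives were other cell filters, clusterings, size factors, pseudocounts, count minimums and top-cell settings. Clusters 16 and 21 and the Schwann-like cells had under 20 cells in a library and were not compared.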

Additional observations from a re-analysis of the deposited data

Results flagged for a closer look

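For 2 members the ratio of induced over control passed 2-fold in opposite directions in different populations, with counting intervals that left out 0. Ptges was lower in Sebaceous gland-like cells, with a log2 ratio of -1.62, and higher in Hair germ-like cells, with 1.27. Hpgd was lower in Dermal papilla-like cells, at -1.51, and higher in Hair germ-like cells, at 1.28. The difference between populations was not tested in either case, because each ratio compares 1 mouse with 1 mouse. In the lower pairs the 5 highest control cells held 74.2% and 78.0% of the UMIs, and in the higher pairs the 5 highest induced cells held 35.7% and 31.9%.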

How the results depend on the processing

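The 112 member ratios were recomputed under 11 other settings, which gave 1156 values, since some pairs fell under a minimum. Of these, 1101 lay inside the counting interval of the reported ratio, and 2 called ratios changed sign, both without the upper limit on genes per cell: Ptgs2 in Upper HF-like cells became 0.17 and Ptger4 in Inner bulge-like cells became 0.11. Of the 22 called ratios, 3 gave a value past 2-fold in the same direction under every one of the 11 settings: Ptger4 in HF-SC-like cells and Hpgds in Upper HF-like and IFE basal-like cells. Ptgs2 in HF-SC-like cells was -0.69 under 5% mitochondrial UMIs, -0.94 with a median-of-ratios size factor and -1.02 without its 5 highest cells. Ptgs2 in Hair germ-like cells was -0.33 under 5% mitochondrial UMIs, -0.71 with no upper limit on genes, -1.55 with the members and lists among the variable genes and -1.64 as a mean over cells. Ptges in Dermal papilla-like cells was 1.59 without its 5 highest cells. The 18 lower pairs became 8 under 5% mitochondrial UMIs, 8 with at least 100 UMIs and 33 with no filter on low counts, where the 4 higher pairs became 15; fewer or more pairs were compared in these settings. The cause of the other shifts was not tested.

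In HF-SC-like cells the highest cell held 4.16% of control and 7.35% of induced Ptgs2 UMIs, 10 cells held 24.7% and 35.7%, and 5 cells held 35.6% and 50.4% under 5% mitochondrial UMIs. Thinned to 2000 UMIs, 44.5% and 23.5% of these cells had a UMI, beside 36.1% of induced cells unthinned, and the mean over cells was 1108 and 617 CPM. In Hair germ-like cells the highest cell held 32.9% and 40.0%, 10 control cells held 86.8%, 5 induced cells held 95.2% under 5% mitochondrial UMIs, 4.57% and 2.88% of cells had a UMI at 2000 UMIs, and the control mean over cells was 55.2 CPM. No paired analysis was possible because each group has 1 library. Hpgds and Ptgir reached the 20 UMIs needed for a ratio in 7 and 3 of the 19 populations.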
